A study of Rattus norvegicus with 6 samples.

Results

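A set of 60 genes that act in mitosis and at the kinetochore was listed by name, and the 39 of them that had a probe set under a single current gene symbol on the array were followed here, out of 10411 genes so named. Where a gene had several probe sets, the one brightest on average (mean of log2 values, all 6 arrays) stood for it. The cells were AR42J, a rat line derived from an exocrine tumour of the pancreas, thawed at passage 29 for each of 3 repeats of the experiment and plated for 24 h in medium with 20% serum. The treated cultures then received medium with 5% serum and 100 nM dexamethasone for 48 h (n = 3), and the control cultures received that medium without dexamethasone for the same time (n = 3). Each culture's total RNA was read on its own Affymetrix Rat 230A array, and the cultures are of 1 cell line at 1 dose and 1 time. The other 21 listed genes, among them Ccna2, Bub1, Ttk, Ndc80, Nuf2 and Cenpa, were not analysed here.

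Mitosis is driven by the kinase Cdk1 bound to a B-type cyclin, and it ends when the anaphase-promoting complex marks that cyclin and the separase inhibitor securin for destruction. Between these events the kinetochore, a protein assembly built on centromeric chromatin, holds each chromosome to spindle microtubules, while the spindle checkpoint delays anaphase until all kinetochores are attached. In dividing mammalian cells most of these genes are transcribed chiefly in G2 and M phase, through FoxM1, B-Myb and the MuvB complex at promoter sequences called cell cycle genes homology region (CHR) elements and through NF-Y at CCAAT boxes, and in resting cells they are repressed. Dexamethasone, a synthetic glucocorticoid, is known to slow the growth of AR42J cells and to increase their content of zymogen granules.

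Deposited values were MAS5 signals on a linear scale, with a trimmed mean of about 500 on every array. The background level of an array was taken as the highest signal of its 27 control probe sets for Bacillus subtilis genes, and it was 100.2, 83.7 and 115.9 in dexamethasone cultures 1 to 3 and 54.5, 97.3 and 51.7 in control cultures 1 to 3. It was thus higher on the treated array in 2 of the 3 pairs, which makes a given signal there count sooner as background. Acinar markers marked the cells as labelled: all 14 on the array were above background on all 6 arrays. The summed signal of the 14 was 147437 to 163130 with dexamethasone and 87148 to 102870 in controls. In the test described below 13 of them were included, and 9 were called higher with dexamethasone and 0 lower. Among all probe sets tested, 15.9% were called higher. Markers of stromal, endothelial and immune cells summed to 1696 to 1826 over 16 genes with dexamethasone and to 1399 to 1506 in controls. The mesenchymal gene Vim and the leukocyte gene Ptprc were below background on all 6 arrays. Others were not: 5 of the 16, Col1a1 and Acta2 among them, were above background on all dexamethasone arrays and 7 on all control arrays. Of these 16, 3 entered the test described below and Pecam1, an endothelial adhesion molecule, rose (log2 change, dexamethasone minus control, 1.05 ± 0.27, adjusted p = 0.0143, where ± is the SE). The ratio of 3' to 5' actin probe sets, a sign of RNA integrity, was 1.2 to 1.7 with dexamethasone and 1.3 to 1.5 in controls. Whether any of these values bears on the mitosis genes was not tested.

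With dexamethasone, all 39 mitosis genes had a lower signal in each of the 3 replicate pairs, a pair being the treated and the control culture that carry the same number in the labels. For Cenpe in pair 2 both signals, 23.8 and 24.2, were below background, so their order carries no weight. The share of all probe sets lower in every pair was not counted. For 38 of the 39 genes the 3 treated arrays lay entirely below the 3 control arrays, a separation in this direction that 20.4% of all probe sets showed. The signals were those of whole cultures, so fewer dividing cells and less mRNA per cell cannot be told apart. Over the 39 genes the median signal was 126.5, 148.1 and 157.6 on the dexamethasone arrays, against 857.3, 981.0 and 914.1 on the control arrays. Each treated array was far below each control array by this measure. The median log2 change (dexamethasone minus control) was -2.70, that is 15.3% of the control signal, beside 0.03 over all 15866 probe sets.

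**Figure D1:**
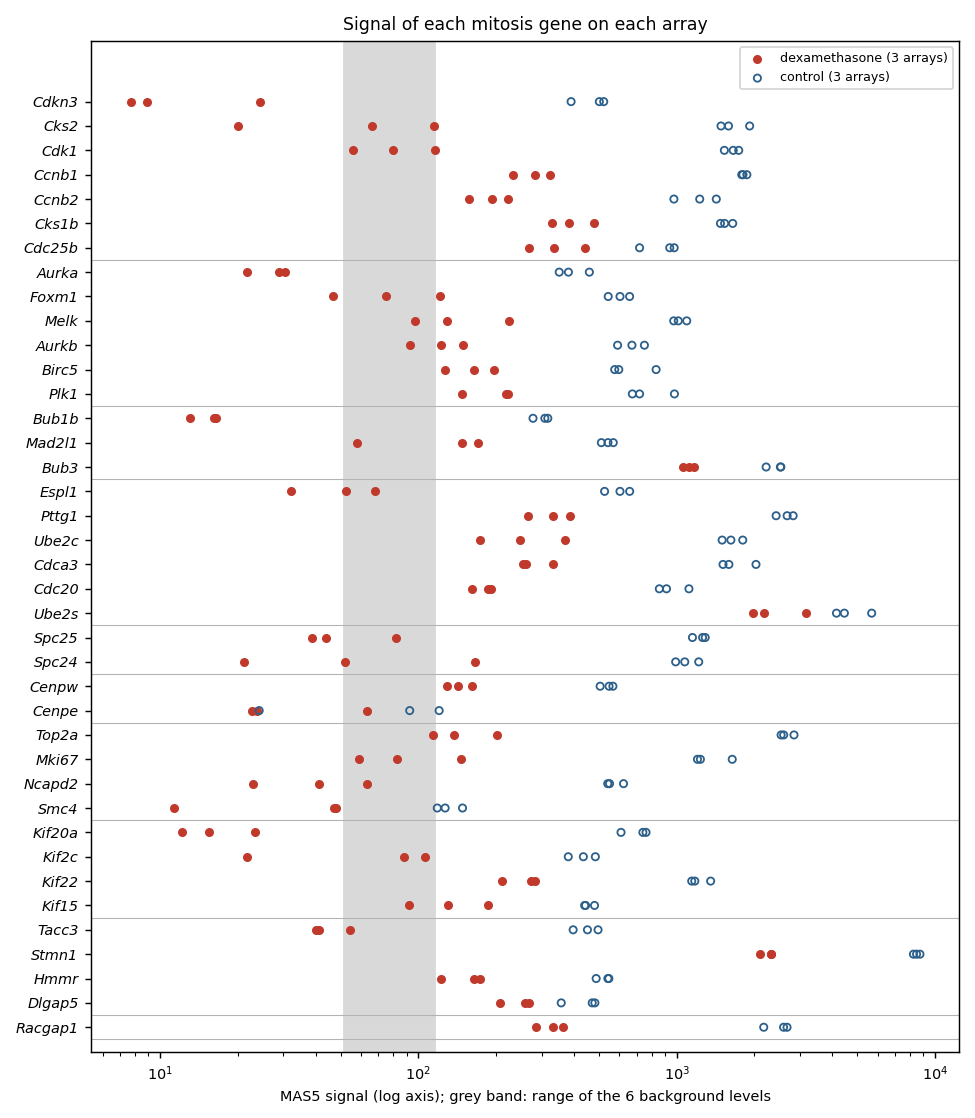
MAS5 signal (log axis) of the 39 mitosis genes on each array, in blocks by role and by size of the fall within a block, with filled red points for the 3 dexamethasone arrays and open blue points for the 3 control arrays. The grey band spans the 6 background levels (51.7 to 115.9); red and blue points mix only for Cenpe, and 10 genes have all red points at or under the background of their own array.

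A moderated linear model (limma) with treatment and replicate pair as terms was fitted to the brighter probe sets, those at or above the 40th percentile of average log2 signal, and p-values were adjusted by Benjamini-Hochberg over all 9520 of them. Of the 39 genes, 32 entered this test, and all 32 were called lower at an adjusted p of 0.05, with a share called lower of 21.2% among all probe sets tested. The filter let in a gene that was bright in controls alone, and it left out 7 genes that were dim on average, so this count cannot stand for the whole set. Fitted to all 15866 probe sets with no filter, the model called 38 of the 39 lower, where 12.2% of all probe sets were called lower. Cenpe was the gene that did not pass. No gene of the set was called higher in either fit, and 0 had an unadjusted p under 0.05 in that direction, while 15.9% of the probe sets past the filter and 8.65% of all were called higher. Changes below are log2 differences, dexamethasone minus control, with their SE, and mean signals have their SD, over 3 arrays in each group. Just under the filter's signal of 147.6 lay Tacc3, with a geometric mean of 141.5, and just above it Ncapd2, with 149.4.

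The falls ranged widely. Among the 18 genes above background on all 6 arrays, whose changes are measured on both sides, the log2 change ran from -3.02 for Pttg1 (12.3% of the control signal left) to -0.83 for Dlgap5 (56.1% left).

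**Figure D2:**
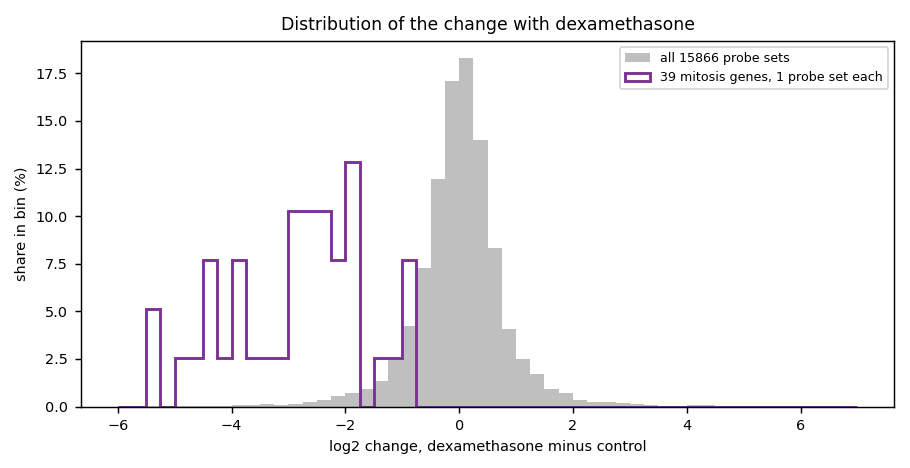
Share of probe sets (%) by log2 change, dexamethasone minus control, in bins of equal width, for all 15866 probe sets (grey) and for the 39 mitosis genes (purple line). The grey bars centre near 0, with a median of 0.03, and the purple line lies wholly below 0, with a median of -2.70.

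By the criterion above, 10 genes were at background on all 3 dexamethasone arrays: Kif20a, Cdkn3, Bub1b, Aurka, Tacc3, Spc25, Ncapd2, Espl1, Smc4 and Cenpe. All but Cenpe were above background on all 3 control arrays. Of the 38 genes above background on every control array, 9 thus reached background on every dexamethasone array, as did 2.75% of the 11098 probe sets above background on every control array. For these genes the change is only bounded, and a bound is given below as the control level over the background level. The p-value beside a bound is that of the fitted change, not of the bound. Spc25 and Espl1 met the criterion on dexamethasone array 3 only by its highest control probe set. Their signals there, 81.6 and 68.2, exceeded the 95th percentile of the control probe sets, 50.82. Another 11 genes were above background on 1 or 2 dexamethasone arrays and 18 on all 3. By array, 22, 27 and 21 of the 39 were above background with dexamethasone, against 39, 38 and 39 in controls. With the 9 genes set at their bounds and Cenpe at no change, the median over the set was -2.42.

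RefSeq promoters of the rat assembly GRCr8, from 250 bases before to 50 after the annotated start site, were held for 35 of the 39 genes. They were searched on both strands for the CHR element (TTTGAA), the CCAAT box (CCAAT) and an E2F-like site (TTTCGCGC or TTTGGCGC). A CHR match was in 22 of the 35 (62.9%), against 11.7% of 8631 promoters of genes on the array and 18.1% of all 27457 in the table. CCAAT was in 28 of the 35 (80.0%), against 37.6% and 37.7%, and more than 1 CCAAT in 19 (54.3%), against 13.0% and 11.5%. Both motifs stood together in 18 of the 35 promoters (51.4%), as in 4.91% of the array's genes. An E2F-like site was found in 2 (5.71%), those of Cdk1 and Stmn1, against 1.34% of the array's genes. A match is a description of the letters in this window and not evidence of binding. The promoters below are those of the 3 genes with the largest fitted falls that were still above background on a dexamethasone array, and of Bub3, a checkpoint gene with one of the smaller falls. They are written 5′ to 3′ on the gene's strand, with every match in capitals.
Cks2 (chr17:13727470-13727769, minus strand): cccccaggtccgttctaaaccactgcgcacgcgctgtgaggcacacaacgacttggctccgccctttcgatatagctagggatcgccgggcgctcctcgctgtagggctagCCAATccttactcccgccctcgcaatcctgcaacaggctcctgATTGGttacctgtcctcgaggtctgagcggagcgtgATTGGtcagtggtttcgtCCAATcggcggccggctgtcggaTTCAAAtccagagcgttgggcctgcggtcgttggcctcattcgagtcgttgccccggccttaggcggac
Cdk1 (chr20:19265043-19265342, plus strand): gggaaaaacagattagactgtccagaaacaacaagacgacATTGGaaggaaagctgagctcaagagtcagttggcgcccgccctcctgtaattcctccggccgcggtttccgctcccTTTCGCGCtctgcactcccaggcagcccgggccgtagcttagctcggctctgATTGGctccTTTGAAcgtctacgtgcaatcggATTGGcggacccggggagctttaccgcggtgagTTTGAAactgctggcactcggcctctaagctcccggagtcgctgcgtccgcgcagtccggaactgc
Spc24 (chr8:28581250-28581549, minus strand): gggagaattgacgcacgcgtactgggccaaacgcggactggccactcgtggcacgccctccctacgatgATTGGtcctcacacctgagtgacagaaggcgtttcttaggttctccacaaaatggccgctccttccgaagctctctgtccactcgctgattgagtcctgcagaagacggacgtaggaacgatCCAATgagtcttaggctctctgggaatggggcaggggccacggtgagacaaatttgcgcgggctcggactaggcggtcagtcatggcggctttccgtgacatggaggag
Bub3 (chr1:195760282-195760581, plus strand): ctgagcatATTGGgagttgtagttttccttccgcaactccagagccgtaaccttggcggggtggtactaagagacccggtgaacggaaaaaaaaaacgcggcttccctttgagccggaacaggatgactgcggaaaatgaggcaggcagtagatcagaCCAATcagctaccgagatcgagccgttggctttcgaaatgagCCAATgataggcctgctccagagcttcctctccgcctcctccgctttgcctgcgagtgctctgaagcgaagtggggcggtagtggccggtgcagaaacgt

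The Cdk1 promoter held 2 CHR matches, beginning 72 and 16 bases before the start site, 3 CCAAT boxes read on the opposite strand and an E2F-like site 133 bases before the start. The Cks2 promoter held 1 CHR match, on the opposite strand and beginning 19 bases before the start, and 4 CCAAT boxes. Spc24 had 2 CCAAT boxes and Bub3 had 3, and neither held the CHR letters in this window. The fitted changes were -4.27 for Spc24, which was above background on only 1 dexamethasone array, and -1.12 for Bub3. Over the 35 genes, the median log2 change with genes at background set at their bounds was -2.26 for the 22 with a CHR match and -1.99 for the 13 without. It was -2.34 for the 28 with CCAAT and -1.99 for the 7 without. By the fitted changes, with no bounds set, the order for CCAAT was the reverse, with medians of -2.63 with it and -2.86 without. For the CHR match the fitted medians were -2.84 with it and -2.60 without. These differences were not tested.

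For every gene of the set described next except Cenpe, all 3 treated signals were below all 3 control signals. Fitted falls of the genes of the Cdk1 engine differed widely, the deepest being those of genes with treated signals at or near background. Cdk1, the kinase itself, had signals of 115.7, 56.0 and 79.7 in dexamethasone cultures 1 to 3, against 1531, 1740.2 and 1657 in control cultures 1 to 3 (log2 change -4.35 ± 0.23, adjusted p = 2.78e-06). All 3 treated arrays were far below all controls, and only culture 1 was above background. Ccnb1, the main B-type cyclin, had 322.1, 233.2 and 283.7 with dexamethasone, against 1788, 1808 and 1871 in controls (-2.72 ± 0.15, adjusted p = 3.11e-06). Ccnb2, the second B-type cyclin, had 193.3, 221.8 and 157.6 with dexamethasone and 976.3, 1425 and 1229 in controls (-2.66 ± 0.17, adjusted p = 7.45e-06). Both cyclins stayed above background on every treated array, at 15.2% and 15.8% of control, whereas the fitted Cdk1 signal was 4.9%.

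Cks1b and Cks2 encode 2 closely related small proteins that bind cyclin-dependent kinases. Cks2 had 20.1, 115.1 and 66.1 with dexamethasone, against 1486, 1918 and 1588 in controls (-4.95 ± 0.35, adjusted p = 1.35e-05). Cks1b had 478.5, 382.2 and 327.9 with dexamethasone, against 1478, 1535 and 1649 in controls (-1.99 ± 0.16, adjusted p = 3.20e-05). Their 95% intervals lay apart (-5.74 to -4.16 for Cks2 and -2.36 to -1.62 for Cks1b). Cks2 was above background on only 1 dexamethasone array, so its interval rests partly on signals below background and does not bound the size. In every pair the fall of Cks2 was the deeper, with log2 changes of -6.21, -4.06 and -4.59 in pairs 1 to 3, against -1.63, -2.01 and -2.33 for Cks1b. Culture 1 set much of the Cks2 value, which was -4.32 without pair 1 and -4.25 without dexamethasone culture 1. Cdkn3, a phosphatase that acts on cyclin-dependent kinases, had 7.7, 24.4 and 8.9 with dexamethasone, all below background, against 390.4, 522.2 and 502.2 in controls (at least 4.72-fold lower, adjusted p = 2.05e-04 in the fit of all probe sets). Cdc25b, the phosphatase that activates Cdk1 early in mitotic entry, had the smallest fitted fall of this group, with 334.3, 267.7 and 440.1 under dexamethasone and 978.7, 718.9 and 940.7 in controls (-1.36 ± 0.15, adjusted p = 2.09e-04). All 7 genes of the group that were on the array were called lower in the fit of all probe sets.

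Mitotic kinases other than Cdk1 also fell, as did their partners. Aurka, the Aurora kinase of the spindle poles, had 21.7, 30.4 and 28.9 with dexamethasone, against 381.2, 459.5 and 351.2 in controls (at least 3.99-fold lower, adjusted p = 2.03e-04 in the fit of all probe sets). No treated signal exceeded 30.4, and no control signal was under 351.2. Aurkb, the Aurora kinase of the chromosomal passenger complex at centromeres, had 122.1, 148.6 and 93.0 with dexamethasone, against 590.9, 750.6 and 671.5 in controls (-2.49 ± 0.19, adjusted p = 2.00e-05). It remained above background in dexamethasone cultures 1 and 2. Birc5 (survivin), another subunit of that complex, had 162.6 ± 35.0 with dexamethasone and 668.8 ± 142.7 in controls (SD, n = 3 each, log2 change -2.04 ± 0.20, adjusted p = 8.81e-05). Plk1, a polo-like kinase active from mitotic entry to cytokinesis, had 218.1, 148.1 and 222.9 with dexamethasone and 674.0, 981.0 and 718.8 in controls (-2.01 ± 0.23, adjusted p = 2.06e-04) and stayed above background on all treated arrays. Foxm1, the transcription factor that drives many of the other genes in dividing cells, had 81.1 ± 37.6 with dexamethasone and 601.7 ± 57.2 in controls (-2.99 ± 0.28, adjusted p = 7.36e-05), with culture 3 alone above background among the treated arrays. Melk, a kinase gene abundant in proliferating cells, had 150.5 ± 66.8 with dexamethasone and 1028 ± 60.9 in controls (-2.86 ± 0.21, adjusted p = 1.75e-05), with culture 3 alone below background among the treated arrays.

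The spindle checkpoint was measured through 3 genes, and their falls differed in size. Bub1b, which encodes the checkpoint protein BubR1, had 16.4, 13.1 and 16.2 with dexamethasone, against 317.2, 278.0 and 308.9 in controls (at least 3.04-fold lower, adjusted p = 2.24e-04 in the fit of all probe sets). Mad2l1, whose product inhibits the activator Cdc20, had 125.4 ± 59.5 with dexamethasone and 540.8 ± 28.7 in controls (-2.25 ± 0.29, adjusted p = 4.45e-04), and among the treated arrays culture 1 alone was below background. Bub3, which binds both Bub1 and BubR1, had 1115, 1055 and 1172 with dexamethasone, against 2523, 2222 and 2533 in controls (-1.12 ± 0.12, adjusted p = 1.24e-04). The groups did not overlap, but Bub3 kept 46.0% of its control signal, and its 95% interval (-1.38 to -0.86) lay apart from that of Mad2l1 (-2.91 to -1.59). The 3 pairs gave nearly the same change for Bub3, at -1.18, -1.07 and -1.11.

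Partners and targets of the anaphase-promoting complex all fell. Espl1, which encodes separase, the protease that cleaves cohesin, had 52.5, 32.0 and 68.2 with dexamethasone, against 658.1, 526.2 and 603.6 in controls (at least 5.99-fold lower, adjusted p = 1.71e-04 in the fit of all probe sets). Pttg1, which encodes securin, the inhibitor of separase, had 328.4 ± 61.6 with dexamethasone and 2645 ± 201.2 in controls (-3.02 ± 0.15, adjusted p = 2.00e-06) and stayed above background on all treated arrays. Cdc20, the mitotic activator of the complex, had 185.7, 160.9 and 190.7 with dexamethasone, against 857.3, 1116 and 914.1 in controls (-2.42 ± 0.17, adjusted p = 1.49e-05). The complex works with 2 ubiquitin-conjugating enzymes, Ube2c, which starts ubiquitin chains, and Ube2s, which extends them, and these differed in the size of their fall. Ube2c had 263.3 ± 98.2 with dexamethasone and 1642 ± 152.3 in controls (-2.70 ± 0.23, adjusted p = 4.02e-05), whereas Ube2s had 3158, 1969.7 and 2183 with dexamethasone, against 4463, 5693 and 4159.6 in controls (-0.99 ± 0.17, adjusted p = 0.00262). Ube2s kept 50.5% of its control signal and Ube2c 15.3%, with 95% intervals of -1.38 to -0.59 and -3.23 to -2.18. Cdca3, a cell division protein linked to ubiquitin ligase activity, had 282.5 ± 44.3 with dexamethasone and 1712 ± 277.8 in controls (-2.60 ± 0.17, adjusted p = 1.04e-05).

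At the outer kinetochore, the Ndc80 complex binds microtubules, and its Spc24 and Spc25 subunits anchor it to the inner kinetochore. Spc25 had 38.7, 43.8 and 81.6 with dexamethasone, against 1152, 1261 and 1291 in controls (at least 12.4-fold lower, adjusted p = 4.71e-05 in the fit of all probe sets). Spc24, its dimer partner, had 21.1, 166.4 and 52.0 with dexamethasone, against 1075, 1218 and 991.7 in controls (-4.27 ± 0.42, adjusted p = 1.02e-04). Both partners were below background on every treated array except for Spc24 in culture 2. Single arrays moved the Spc24 value, which was -4.96 without pair 2 and -5.04 without dexamethasone culture 2, against -3.56 without pair 1 and -3.55 without dexamethasone culture 1.

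Of the centromere proteins, Cenpw, a histone-fold subunit of the inner kinetochore network, had 129.0, 141.9 and 161.9 with dexamethasone, against 505.8, 547.6 and 566.7 in controls (-1.91 ± 0.17, adjusted p = 5.12e-05). Its 3 pairs gave changes within 0.16 of each other on the log2 scale. Cenpe, a kinesin that moves chromosomes to the spindle equator, had 63.1, 23.8 and 22.7 with dexamethasone, against 92.6, 24.2 and 120.4 in controls. Control culture 2 lay within the range of the treated arrays, 2 of 3 control arrays were above background, and no fold is given. In the fit of all probe sets its log2 change was -0.99 with a 95% interval of -2.25 to 0.26 (adjusted p = 0.245), so this probe set does not tell whether Cenpe changed. The value was -1.70 without control culture 2 and -0.29 without pair 3.

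All 4 genes of mitotic chromosome structure on the array were called lower in the fit of all probe sets. Top2a, the topoisomerase that untangles sister chromatids, had 138.0, 201.2 and 114.0 with dexamethasone, against 2598, 2848 and 2539 in controls (-4.18 ± 0.16, adjusted p = 8.61e-07), an 18.1-fold fall in which the treated arrays were all far below the controls. Its signal in dexamethasone culture 3 was just below background. Mki67, the gene of the Ki-67 protein that coats mitotic chromosomes, had 95.9 ± 45.1 with dexamethasone and 1361 ± 244.1 in controls (-3.92 ± 0.26, adjusted p = 1.01e-05), with culture 2 alone above background among the treated arrays. Ncapd2 and Smc4 encode subunits of condensin, which compacts chromosomes. Ncapd2 had 42.5 ± 20.2 with dexamethasone and 571.5 ± 44.9 in controls (at least 5.76-fold lower, adjusted p = 3.56e-04 in the fit of all probe sets). Smc4 was dim even in controls, with 11.3, 47.9 and 47.1 under dexamethasone and 127.0, 118.4 and 148.3 in controls (at least 1.32-fold lower, adjusted p = 0.0221 in the fit of all probe sets). Its fitted change of -2.15 was -1.48 without pair 1 and -1.46 without dexamethasone culture 1.

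Kinesins of the mitotic spindle fell to unequal depths. Kif20a, a motor of the central spindle needed for cytokinesis, had 15.5, 23.4 and 12.2 with dexamethasone, against 609.3, 740.3 and 761.5 in controls (at least 7.07-fold lower, adjusted p = 7.28e-05 in the fit of all probe sets). Kif22, a motor that pushes chromosome arms outward, had 255.9 ± 39.5 with dexamethasone and 1225 ± 113.3 in controls (-2.27 ± 0.17, adjusted p = 2.00e-05). Kif2c, which depolymerises microtubules at kinetochores, had 72.2 ± 44.6 with dexamethasone and 433.6 ± 52.0 in controls (-2.87 ± 0.37, adjusted p = 4.40e-04), and its value was -2.24 without pair 3 and -2.15 without dexamethasone culture 3, the array with the lowest signal. Only dexamethasone culture 2 was above background for Kif2c among the treated arrays. Kif15, which helps to keep spindle poles apart, had 92.2, 130.2 and 186.4 with dexamethasone, against 481.1, 444.1 and 440.6 in controls (-1.80 ± 0.24, adjusted p = 4.85e-04), and was above background in dexamethasone cultures 2 and 3. Racgap1, part of the centralspindlin complex that directs the cleavage furrow, was the only cytokinesis gene followed, and had 332.0, 364.4 and 285.7 with dexamethasone, against 2677, 2175 and 2596 in controls (-2.92 ± 0.15, adjusted p = 2.78e-06).

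Proteins that bind or organise spindle microtubules completed the set. Tacc3, which crosslinks spindle fibres, had 40.2, 54.3 and 41.2 with dexamethasone, against 397.6, 496.4 and 451.7 in controls (at least 4.51-fold lower, adjusted p = 1.85e-04 in the fit of all probe sets). Hmmr, a spindle assembly factor, had 153.3 ± 27.2 with dexamethasone and 525.6 ± 32.5 in controls (-1.79 ± 0.19, adjusted p = 1.36e-04). Stmn1 (stathmin), which destabilises microtubules and is also abundant in neural and endocrine cells, had 2249 ± 121.9 with dexamethasone and 8504 ± 246.4 in controls (-1.92 ± 0.10, adjusted p = 2.89e-06). It kept 26.4% of its control signal on average, and all 3 treated arrays stayed far above background. Dlgap5, which stabilises microtubules near chromosomes, had 258.3, 207.4 and 267.9 with dexamethasone, against 357.5, 482.6 and 471.2 in controls (-0.83 ± 0.19, adjusted p = 0.00883). The call was lost without pair 2 (-0.64, adjusted p = 0.0567).

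Replicate pairs gave like results for the set as a whole. Over the 39 genes the median log2 change was -2.71, -2.68 and -2.85 in pairs 1 to 3. Of the 39, 36, 38 and 37 were at least 2-fold lower in these pairs. The share of all probe sets at least 2-fold lower in a pair was not counted. Their median change was 0.02, -0.07 and 0.11 in pairs 1 to 3. Single genes varied more: the 3 pairs spanned over 1 log2 unit for 16 genes and under 0.3 for Bub3, Bub1b, Cenpw, Stmn1 and Tacc3. The widest spans were those of Spc24 (2.80), Cenpe (2.38), Smc4 (2.18), Cks2 (2.15) and Kif2c (2.10), and each of these had at least 1 dexamethasone array below background.

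**Figure D3:**
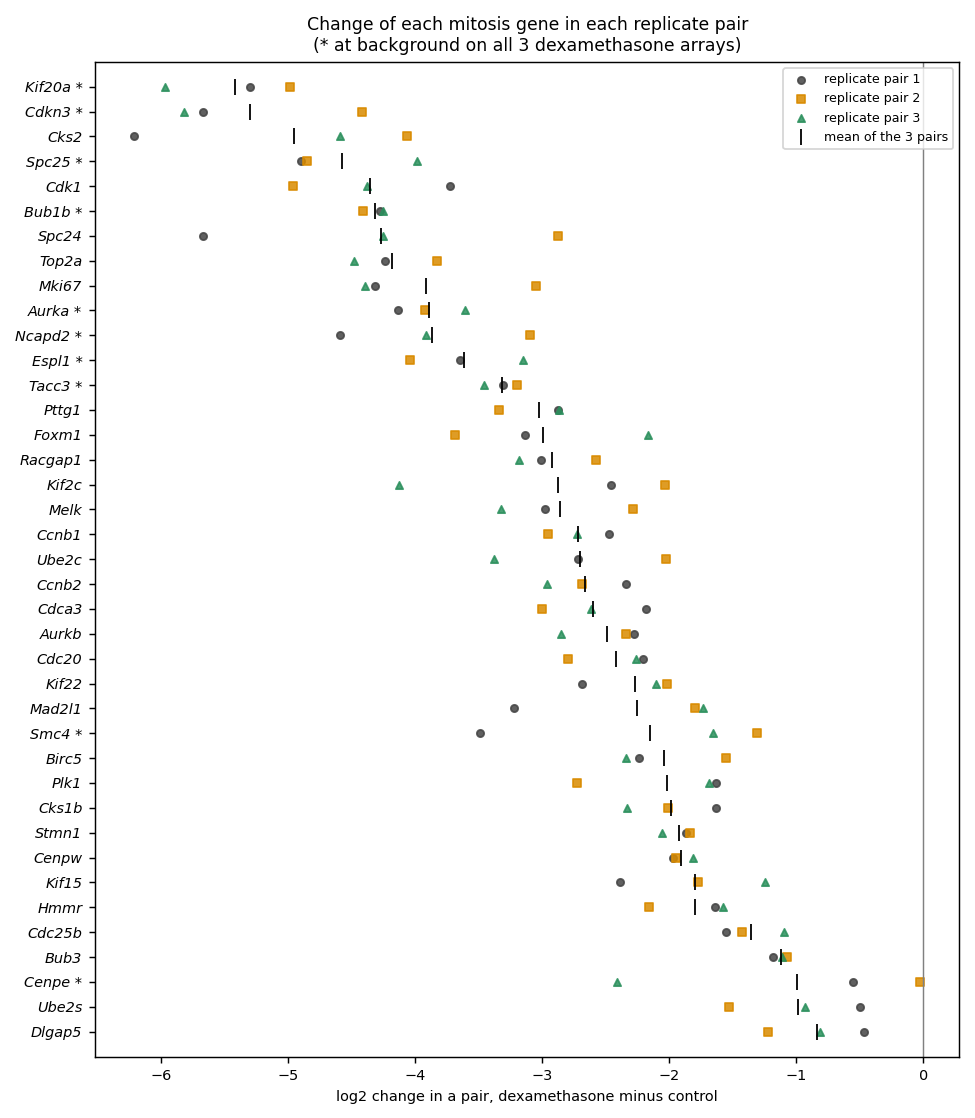
Log2 change of each of the 39 mitosis genes, dexamethasone minus control, in replicate pairs 1 (circles), 2 (squares) and 3 (triangles), ordered by the mean of the 3 pairs (black tick); asterisks mark genes at background on all 3 dexamethasone arrays. All symbols lie below 0, and the spread between pairs is widest for Spc24, Cenpe, Smc4, Cks2 and Kif2c.

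Of the 39 genes, 6 had further probe sets, 9 in all. The further probe set of Ccnb1 had a log2 change of -1.87 ± 0.17, that of Cks1b -2.06 ± 0.34, that of Top2a -3.37 ± 0.27 and that of Hmmr -2.07 ± 0.24, all called lower. For Kif2c it was too dim for the filtered test and was lower in the fit of all probe sets (at least 2.17-fold, adjusted p = 0.00143). Cdc20 had 4 further probe sets. The brighter of them was called lower (-2.06 ± 0.18, adjusted p = 4.97e-05), and the other 3, with mean control signals of 83.5 to 129.8, did not pass in the fit of all probe sets (-0.56, -0.14 and 0.14).

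Other genes of mitosis, 149 in number and outside the set, were listed from general knowledge, and 92 were on the array. Of these, 79 entered the filtered test and 39 were called lower, 0 higher and 40 did not pass. Among all probe sets tested 21.2% were called lower and 15.9% higher, the shares to set beside each list count below. In the fit of all probe sets 47 were lower and 0 higher, where 12.2% of all probe sets were called lower and 8.65% higher. In each fit 4 of the list were higher with an unadjusted p under 0.05. The median log2 change of the 92 genes was -0.58. Scaling the arrays in other ways moved the median of all probe sets tested by 0.12 or -0.25. The list median of -0.58 is larger in size than either shift. A list median smaller in size than both shifts has no settled direction.

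Among 12 other kinetochore and checkpoint genes, 8 were tested and 5 were lower, with a median of -1.02. Past the filter the largest falls called were those of Hjurp, the chaperone that deposits centromeric histone (119.3 ± 74.8 with dexamethasone and 963.2 ± 79.0 in controls, -3.18 ± 0.26, adjusted p = 2.93e-05), and Zwint, a kinetochore scaffold (690.0 ± 60.1 with dexamethasone and 1794 ± 287.8 in controls, -1.37 ± 0.13, adjusted p = 6.61e-05). Hjurp was above background on only 1 dexamethasone array, so the size of its fall is uncertain. Of 12 other mitotic kinases, phosphatases and their partners, 9 were tested and Wee1 alone was lower (-0.86 ± 0.19, adjusted p = 0.00743). Wee1 is the kinase that restrains Cdk1. The median of that list was -0.10, and the subunits of the Cdk-activating kinase, Cdk7, Ccnh and Mnat1, named after their values were seen, did not pass, with changes of 0.0025, -0.01 and -0.18. Too dim on average for the filter were Cdca8 (borealin, a chromosomal passenger subunit) and Plk4 (the kinase of centriole duplication), which were chosen for mention after their values were seen. Cdca8 had 24.1, 20.7 and 20.6 with dexamethasone, against 772.2, 911.4 and 722.6 in controls (at least 8.06-fold lower, adjusted p = 4.43e-05 in the fit of all probe sets). Plk4 had 25.5, 20.4 and 5.4 with dexamethasone, against 486.8, 448.7 and 419.6 in controls (at least 4.55-fold lower, adjusted p = 4.96e-04 in that fit).

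Of 13 core subunits and regulators of the anaphase-promoting complex, 12 were tested and 5 were lower, with a median of -0.37. Past the filter the largest falls called were Anapc1, the scaffold subunit (-0.74 ± 0.17, adjusted p = 0.0103), and Fzr1, the activator of late mitosis and G1 (-0.56 ± 0.17, adjusted p = 0.0312), whose call was lost in the fit of all probe sets (adjusted p = 0.0564). Anapc15, a small subunit too dim for the filter and named after its values were seen, was at background on all treated arrays, with 35.6, 37.1 and 27.9 under dexamethasone and 256.8, 299.9 and 206.2 in controls (at least 2.54-fold lower, adjusted p = 6.97e-04 in the fit of all probe sets). Of 11 genes of cohesin, its regulators and a condensin II subunit, 7 were lower, with a median of -0.83, led by Smc3, a ring subunit of cohesin (-1.32 ± 0.19, adjusted p = 7.71e-04), and Ncaph2 of condensin II (-1.11 ± 0.14, adjusted p = 4.75e-04). The cohesin loader genes Nipbl and Mau2, named after their values were seen, did not pass (0.07 and 0.02).

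For 26 other spindle and centrosome genes, 21 were tested and 13 were lower, with a median of -0.88. Spag5, which holds sister chromatids and spindle poles together, had 75.8 ± 42.6 with dexamethasone and 618.0 ± 59.0 in controls (-3.21 ± 0.29, adjusted p = 6.14e-05), and Kifc1, a minus-end motor, had 208.0 ± 46.3 with dexamethasone and 717.4 ± 86.2 in controls (-1.81 ± 0.17, adjusted p = 6.70e-05). Spag5 was above background on only 1 dexamethasone array, so the size of its fall is uncertain. Kif18b, a motor of astral microtubule ends chosen after its values were seen, was at background on all treated arrays, with 18.1, 28.1 and 19.6 under dexamethasone and 609.0, 671.2 and 593.0 in controls (at least 6.29-fold lower, adjusted p = 6.56e-05 in the fit of all probe sets). All 18 other cytokinesis genes were tested, and 8 were lower, with a median of -0.38. Myh10, a non-muscle myosin (-1.49 ± 0.16, adjusted p = 1.36e-04), and Cit, the citron kinase of the midbody (-1.04 ± 0.15, adjusted p = 9.94e-04), fell most among them. Among genes of the membrane-cutting ESCRT machinery, picked after the values were seen, Tsg101 was lower (-0.94 ± 0.17, adjusted p = 0.00318), and Chmp2a, Chmp1b, Pdcd6ip, Vps4a and Vps4b did not pass, with changes of -0.14 to 0.35.

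DNA replication genes, the nearest other group, were set beside the mitosis genes. Of 53 listed, 38 were on the array, 33 were tested, 30 were lower and 0 higher, where 21.2% of all probe sets tested were called lower. The median log2 change of the 38 was -2.0, beside -2.70 for the 39 mitosis genes. Mcm6, a subunit of the replicative helicase, had 109.3, 74.5 and 65.3 with dexamethasone, against 2609.8, 1999.7 and 2448 in controls (-4.85 ± 0.17, adjusted p = 5.08e-07). Mcm6 was above background on only 1 dexamethasone array, so the size of its fall is uncertain. Dnmt1, the maintenance DNA methyltransferase, was at background on all treated arrays, with 66.1, 63.0 and 23.3 under dexamethasone and 965.4, 1029 and 912.1 in controls (at least 9.77-fold lower, adjusted p = 1.66e-04 in the fit of all probe sets). With genes at background set at their bounds the medians were -2.42 for the mitosis genes and -1.87 for the replication genes. The lists were not tested against each other. A CHR match was in 3 of 33 replication gene promoters (9.09%), against 22 of 35 for the mitosis genes, and in 20 of the 81 promoters of other mitosis genes (24.7%). CCAAT was in 21 of the 33 (63.6%) and in 42 of the 81 (51.9%).

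**Figure D4:**
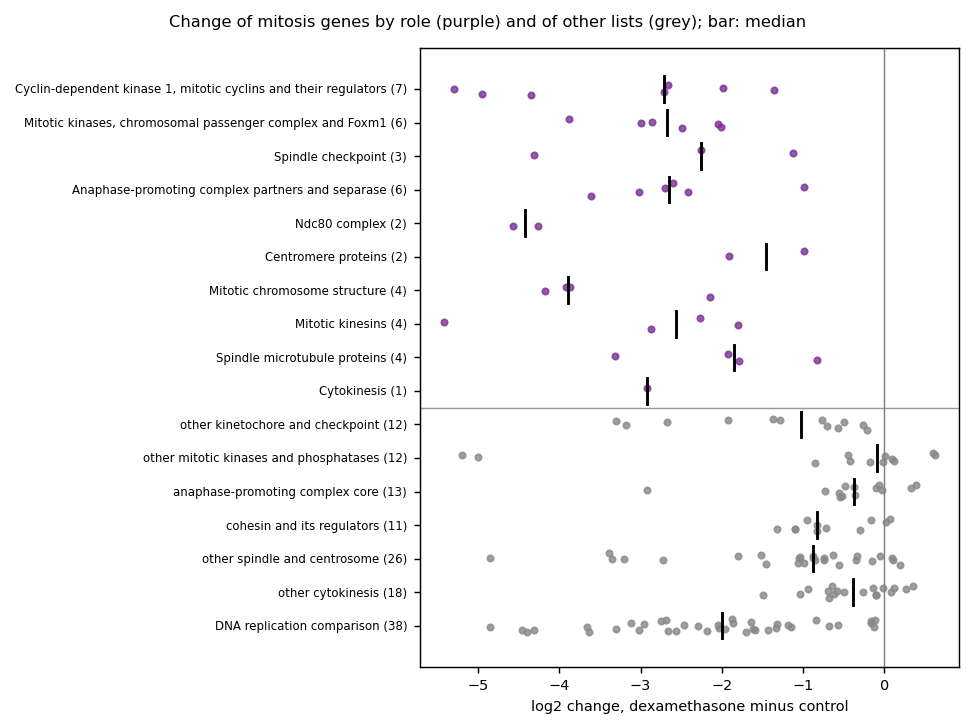
Log2 change, dexamethasone minus control, of each gene (points) by list, with the number of genes in parentheses and the median as a black bar; purple lists hold the 39 mitosis genes by role and grey lists the other mitosis genes and the DNA replication genes. Every purple point lies below 0, including genes at background whose fitted change is not a measured size, and the grey lists of the other mitotic kinases, the anaphase-promoting complex core and other cytokinesis genes centre between -0.38 and -0.10.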

How the data were processed

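Per the submitters' processing notes, the authors made the deposited values, 1 intensity per probe set and array, with GCOS and MAS5. For both, version and settings are not given in the sources used here. Only the signal of each probe set was used. The MAS5 method takes away local background and the mismatch probes' signal, so dim values are noisy. All arrays had the same trimmed mean, and a change in total RNA per cell would leave no trace. Of 15923 probe sets, 57 array controls were left out and 15866 analysed. Platform gene names were brought up to date through RefSeq gene records for GRCr8, which gave 12783 probe sets 1 symbol, 312 several and 2771 none.

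Signals were taken to log2 after 4 zeros were set to 0.1. Arrays were not normalized again. R 4.3.3 and limma 3.58.1 served for the model (lmFit, then eBayes with its trend option), which was tested on simulated data. The series' design text describes pairs of cultures, and replicate number was taken as the pair and used as a block, although the labels do not tie the numbers to the repeats of the experiment. Deviations of same-numbered arrays from their group means correlated at -0.10, 0.11 and 0.21 over the probe sets tested, over 0.1 in only 2 of 3 pairs, and those of differently numbered arrays at -0.25 to 0.18. The p-values cover the spread between these cultures of 1 line. Only 3 arrays per group limit the precision.

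Genes, lists, background level and tests were chosen with earlier results of these data known. Named genes were the largest and smallest fall of each role group, Cdk1 with its cyclins and Cks partners, Bub3, Aurkb, the Ndc80 genes, any member that did not pass, and the 2 largest falls called in each other list. Alternatives changed the block, filter, pseudocount, scaling, trend, probe set, background level and the arrays included.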

Additional observations from a re-analysis of the deposited data

How the results depend on the processing

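The 32 mitosis genes called lower were 32 with no replicate block, without the intensity trend, with a pseudocount of 50 and under each of 3 other scalings, and 31 with the second brightest probe set where a gene had one, since that of Kif2c was too dim to be tested. Leaving out each replicate pair or each array in turn gave 31 to 32 calls and a median change of -2.81 to -2.51, and the block changed no call in the set. Above a stricter filter at the 60th percentile only 18 of the genes were bright enough to be tested, and all 18 were lower. No alternative called a gene of the set higher or turned the direction of one. The median change of -2.70 became -2.58 with arrays centred on their 75th percentile, -2.95 with arrays scaled to the hybridization controls, and -2.38 with a pseudocount of 50. The pseudocount shrinks the fitted change of dim genes and moved 15 of the genes by over 1.5-fold. Over all probe sets tested, 2019 were lower and 1512 higher, against 1503 and 2037 with that centring and 3257 and 778 with hybridization control scaling. Of the other mitosis genes, 39 were called lower, with 33 and 51 under those scalings and 31 to 40 when a pair or an array was left out. The count of 10 genes at background on all dexamethasone arrays was 13 with 1 common level, 8 with the 95th percentile of the controls, and 11 to 14 when judged on only 2 of the 3 arrays. For genes at background on all treated arrays only a bound can be given, and fitted changes of genes near background move with single arrays.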
